A study of Homo sapiens with 36 samples.

Results

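The proteasome genes were taken as the protein-coding genes of GENCODE whose symbols begin with PSMA, PSMB, PSMC, PSMD, PSME, PSMF or PSMG followed by a number, with PSMB8 and PSMB9 left out of the 50 that matched. The rule gave 48 of 20033 protein-coding genes, spread over 17 chromosomes. They comprised 8 genes of the alpha ring and 9 of the beta ring of the core particle, 6 ATPases and 11 non-ATPase subunits of the regulatory particle, 7 assembly chaperones, and 5 genes for activators and an inhibitor. The last 2, PSMC3IP and PSME3IP1, carry a matching symbol but encode partners of proteasome proteins rather than subunits. Nearly all of these promoters carried pol II and H3K4me3 in both cell lines, whereas peaks of the Jun family lay at 32 of the 48 genes in A549 (66.7%) and at 8 in B2B (16.7%). Of all protein-coding genes, 37.7% and 16.5% had such a peak, and of those with H3K4me3 in both lines 56.2% and 22.9%, so that a contrast between the lines was also present at promoters in general.

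The proteasome is the protease that breaks down proteins tagged with ubiquitin. Its core particle stacks alpha rings, which form the gate, on beta rings, which hold the catalytic sites, and the regulatory particle that caps it recognizes, unfolds and feeds in the substrate. Because all subunits are needed in fixed proportion, their genes are widely transcribed and are raised together by NFE2L1, a transcription factor that is released when the proteasome is inhibited and that binds the antioxidant response element. JunB, Jun and JunD are subunits of AP-1, whose recognition site shares letters with that element.

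The data were ChIP-seq, in which DNA bound by a protein or carrying a histone mark is recovered with an antibody and sequenced. A549 cells come from a human lung adenocarcinoma, BEAS-2B (B2B) cells are human bronchial epithelium that was immortalized and is not cancerous, and the labels give no treatment for either. Pol II, H3K4me3 (a mark of active promoters), Med1 (a Mediator subunit), H3K27ac (a mark of active promoters and enhancers), JunB, Jun and JunD were profiled in both lines, and 2 further lists of B2B were used, of the insulator factor CTCF and of Rad21 from the cohesin ring. The 36 samples formed 18 groups of 2 replicates, 2 of the groups being input chromatin, and each of the 16 peak lists came from 2 merged replicates. With no list per replicate, a difference between the lines has no replicate error and was not tested, and because each kind of cell is represented by a single line, disease state and line cannot be told apart.

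Several facts of the whole series bear on the values. The lists held between 8563 and 61225 peaks. 4 of the lists held no peak past a position on chromosome 13, 15 or 20, so the A549 lists of pol II, Med1 and H3K27ac scored 44, 28 and 20 of the 48 genes, and the B2B list of Med1 scored 28. The numbers of reads behind the lists are not given in the sources used here. For H3K4me3 at marker genes, 4 of 5 epithelial genes had a peak in both lines (KRT19 had none in either), both mesenchymal genes had a peak in both, 2 of 3 alveolar type II genes had a peak in A549 and 1 in B2B, 1 of 3 basal airway genes had a peak in A549 and none in B2B, and none of 3 leukocyte genes had a peak in either line.

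To ask whether these genes had active promoters in both lines, peaks within 1 kb of any annotated start site of each gene were counted. H3K4me3 lay at 46 of 48 genes in A549 and at 46 of 48 in B2B (95.8% in each, Wilson 95% interval 86 to 98.8%, which covers counting error only), against 72% and 61.5% of all protein-coding genes. The same 46 genes were marked in both lines (all genes 59.7%, with 12.3% in A549 only and 1.82% in B2B only), and the 2 without a peak were PSMA8, the testis form of an alpha subunit, and PSMB11, the beta subunit of the thymus. Neither of these had a peak in any list that covered its chromosome. Pol II lay at 42 of 44 scored genes in A549 (95.5%, all genes 67.6%) and at 45 of 48 in B2B (93.8%, all genes 49.2%). Among the 11959 protein-coding genes with H3K4me3 in both lines, 96.9% had pol II in A549 and 79.1% in B2B, and the B2B value lay below the interval of the proteasome genes (83.2 to 97.9%).

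PSME1, a subunit of the interferon-inducible activator, was the single member with pol II in A549 only, 41 of the 44 genes scored in both lines having it in both and 0 in B2B only. Over all protein-coding genes, 48.5% had pol II in both lines, 19% in A549 only and 1.66% in B2B only. Its A549 pol II peak had a fold enrichment (the pileup of reads at the summit plus 1, over the local background plus 1) of 28.4, and its H3K4me3 peak of 55.3 stood at percentile 99.7 of the A549 list. In B2B its H3K4me3 peak had a fold enrichment of 2.38, with 178 reads at the summit over a local background of 74.4 reads. H3K4me3 was thus called at PSME1 in both lines, over a higher local background in B2B.

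H3K27ac lay at all 20 scored genes in A549 (100%, all genes 71.6%, marked genes, those with H3K4me3 in both lines, 98.6%) and at 46 of 48 in B2B (95.8%, all genes 63.2%, marked genes 96.2%). The 20 genes scored in both lines had it in both, as did 60.8% of all genes, while 10.8% had it in A549 only and 1.96% in B2B only. Med1 lay at 24 of 28 scored genes in A549 (85.7%, all genes 53.2%, marked genes 81.8%) and at 26 of 28 in B2B (92.9%, all genes 59.5%, marked genes 91.3%). It was called in both lines at 23 genes (all genes 49.5%), in A549 only at 1 (all genes 3.68%) and in B2B only at 3 (all genes 9.97%). PSMD4, the ubiquitin receptor of the regulatory particle, had a Med1 peak in A549 only, with a fold enrichment of 3 at percentile 0.255 of its list. PSMD2, PSMD13 and PSME1 had Med1 in B2B only, with fold enrichments of 6.28, 3.62 and 7.9. The peaks of PSMD4 and PSMD13 thus stood near the bottom of their lists, whereas those of PSMD2 and PSME1 stood at percentiles 49.2 and 68.

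**Figure D1:**
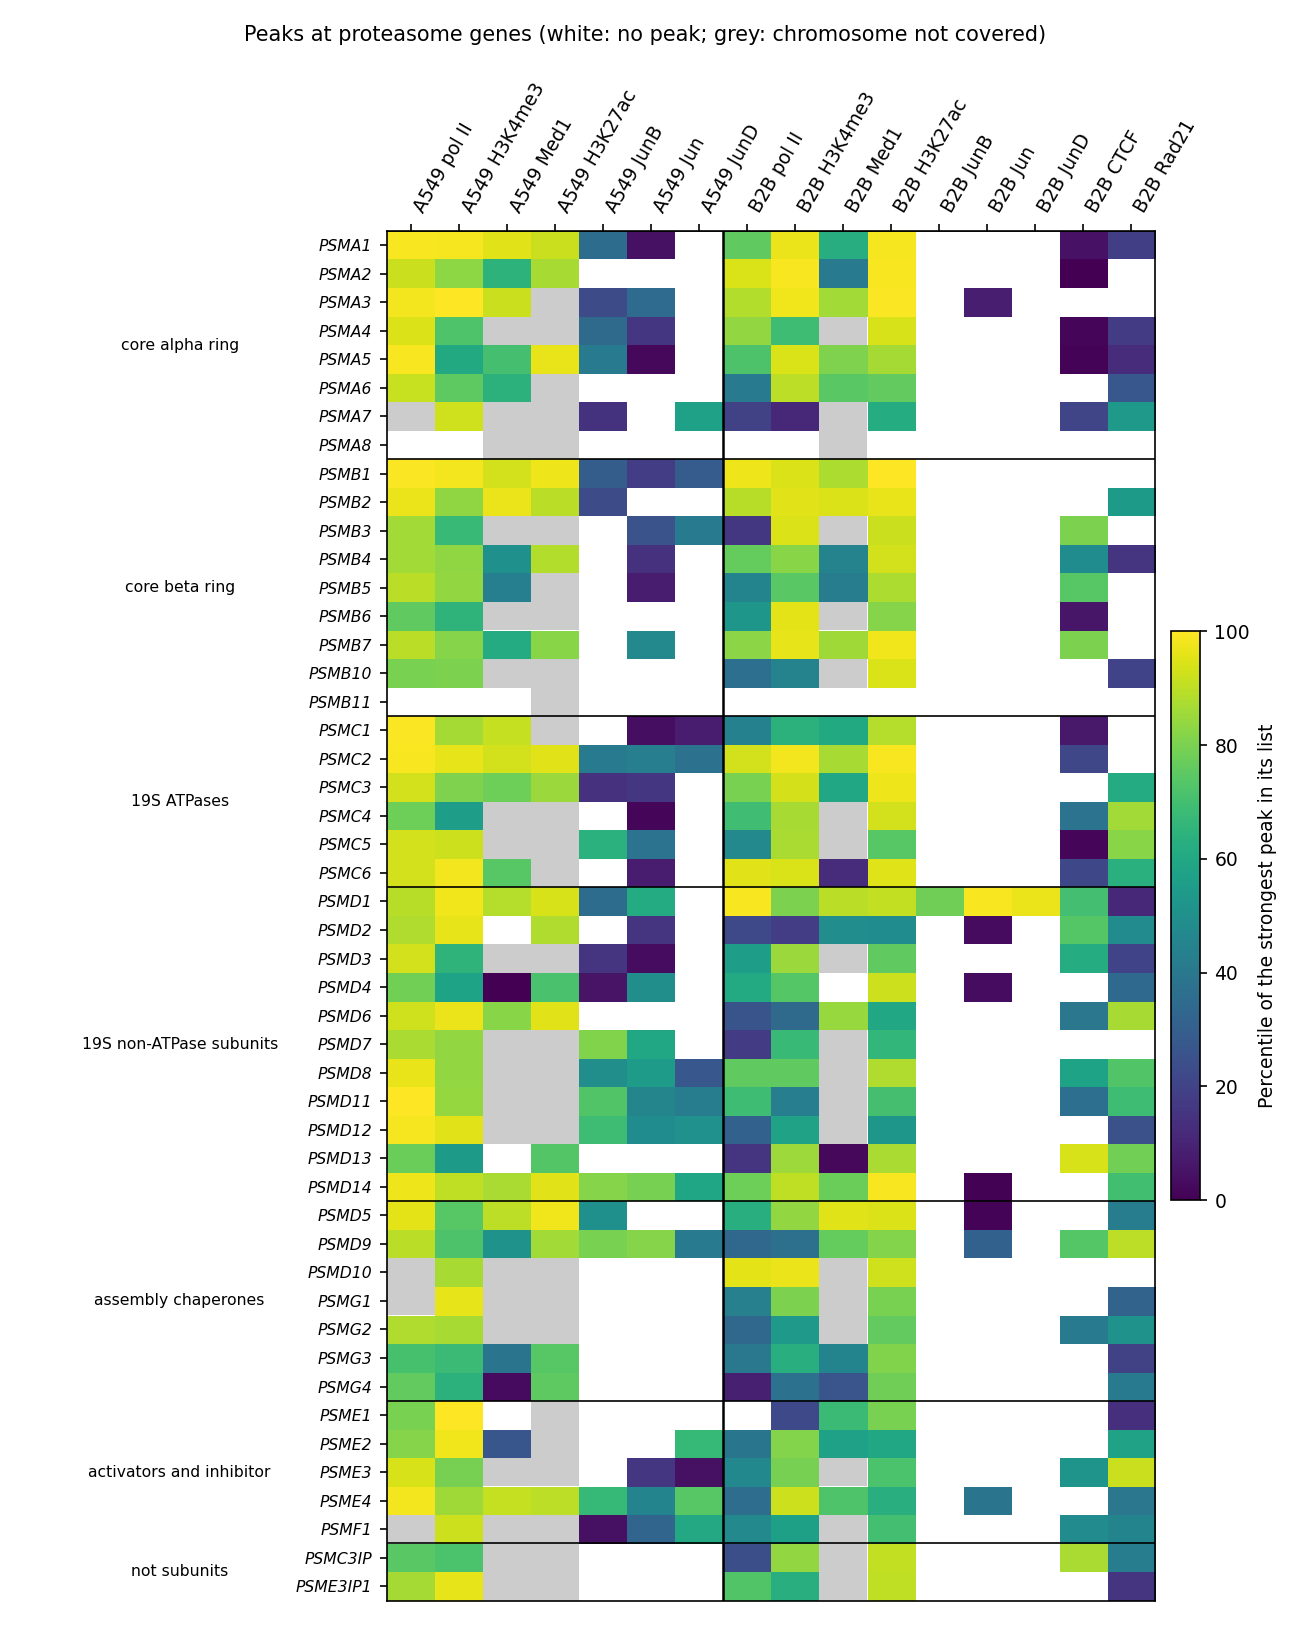
Each row is a proteasome gene, grouped by role (19S is the regulatory particle), and each column a peak list, with A549 left and B2B right of the line. Colour gives the percentile of the strongest peak within its list (0 to 100), white means no peak within 1 kb of a start site and grey a chromosome that the list does not cover. H3K4me3 fills 46 of 48 rows in both lines, and the Jun-family columns are filled in 32 rows in A549 and 8 in B2B.

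The strength of the peaks was compared within each list, because fold enrichment is not comparable between lists. In A549 the pol II peaks of the 42 genes had a median percentile of 91.7, against 86.9 over all genes with a pol II peak, and 22 of them (52.4%, all genes 39.4%) stood at percentile 90 or above. PSMD11, a scaffold subunit of the regulatory particle, led with a fold enrichment of 113 over 1814 bp, followed by PSMB1 and PSMC1 at 106 each. In B2B the median percentile was 53 (all genes 46.8), and among peaks near canonical starts PSMB1 led at a fold enrichment of 19.1. The canonical start is that of the transcript tagged Ensembl canonical.

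H3K4me3 and H3K27ac stood higher among the B2B peaks of these genes than among those of genes in general. The median percentile of H3K4me3 was 81.8 in B2B (all genes 56.9) and 83.9 in A549 (all genes 79.2). For H3K27ac it was 87.9 in B2B (all genes 69.5) and 88.9 in A549 (all genes 84). PSMA3, an alpha subunit, was among the 3 strongest members for H3K4me3 in both lines, at fold enrichments of 56.6 in A549 and 13.6 in B2B. PSMA2, which shares its promoter region with MRPL32 on the other strand, led in B2B at 17.6.

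B2B promoters were more often split into several H3K4me3 peaks. More than 1 peak lay at 33 of the 46 genes in B2B (71.7%, all genes with a peak 63.1%) and at 8 of 46 in A549 (17.4%, all genes 23.7%), and the median width of the strongest peak was 1245 bp in B2B and 2644 bp in A549. The local background under the strongest peak, solved from the fold enrichment and p-value of each peak, was a median of 10.6 times the lowest of the list in B2B and 1.65 times in A549. For pol II the corresponding values were 13.3 and 1.56. The part of this background in the difference of widths and fold enrichments between the lines was not tested.

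The Jun family separated the lines. Jun lay at 28 of 48 proteasome genes in A549 (58.3%, interval 44.3 to 71.2%, all genes 31.9%) and at 8 in B2B (16.7%, 8.7 to 29.6%, all genes 16.5%). JunB lay at 22 genes in A549 (45.8%, 32.6 to 59.7%, all genes 26.3%) and at 1 in B2B (2.08%, 0.369 to 10.9%, all genes 3.02%). JunD lay at 14 genes in A549 (29.2%, 18.2 to 43.2%, all genes 15.8%) and at 1 in B2B (2.08%, all genes 1.75%). In B2B the shares were therefore near the background of all genes, and in A549 they were above it.

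Much of this excess was also present at other marked promoters. Among marked genes, 47.4% had Jun, 39.6% JunB and 24.6% JunD in A549, and 22.8%, 4.29% and 2.5% in B2B, and each value lay within the interval of the proteasome genes. Jun was called in both lines at 7 members (all genes 12.1%), in A549 only at 21 (all genes 19.7%) and in B2B only at 1 (all genes 4.32%). JunB was called in both lines at 1 member (all genes 2.49%), in A549 only at 21 (all genes 23.8%) and in B2B only at 0 (all genes 0.534%). JunD was called in both at 0 (all genes 0.894%), in A549 only at 14 (all genes 14.9%) and in B2B only at 1 (all genes 0.854%). The shares in A549 exceeded those in B2B by 41.7 percentage points for Jun (Newcombe 95% interval 22.6 to 56.8). Such intervals treat the lines as independent, although the same genes were scored in both. For JunB the difference was 43.8 points (27.8 to 57.7), and for JunD it was 27.1 points (13 to 41.2). The marked genes gave differences of 24.6, 35.4 and 22.1 points, each again inside the interval of the proteasome genes, and all protein-coding genes gave 15.4, 23.3 and 14.1. For Jun at the 46 marked members the difference was 43.5 points (23.8 to 58.7), and 24.6 lay near the lower end.

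The length of the lists bears on these differences. On chromosomes 1 to 12, with the lists of each target cut to equal length by p-value, JunB lay at 3 of 20 genes in A549 (15%, all genes 7.26%) and at 1 in B2B (5%, all genes 3.29%), a difference of 10 points, whereas the full A549 list gave 12 of these 20 (60%). For Jun the equal lists gave 13 of 20 in A549 (65%, all genes 32.8%) and 5 in B2B (25%, all genes 15%), and for JunD 5 (25%, all genes 15.2%) and 1 (5%, all genes 1.96%). The Jun and JunD differences were thus also present with lists of equal length, and most of the JunB difference was not. These are counts among 20 genes, and no interval was computed for them. For Jun the cut lowered the B2B count only. The full lists there gave 13 and 7 of 20, a difference of 30 points, against 40 points with equal lists.

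**Figure D2:**
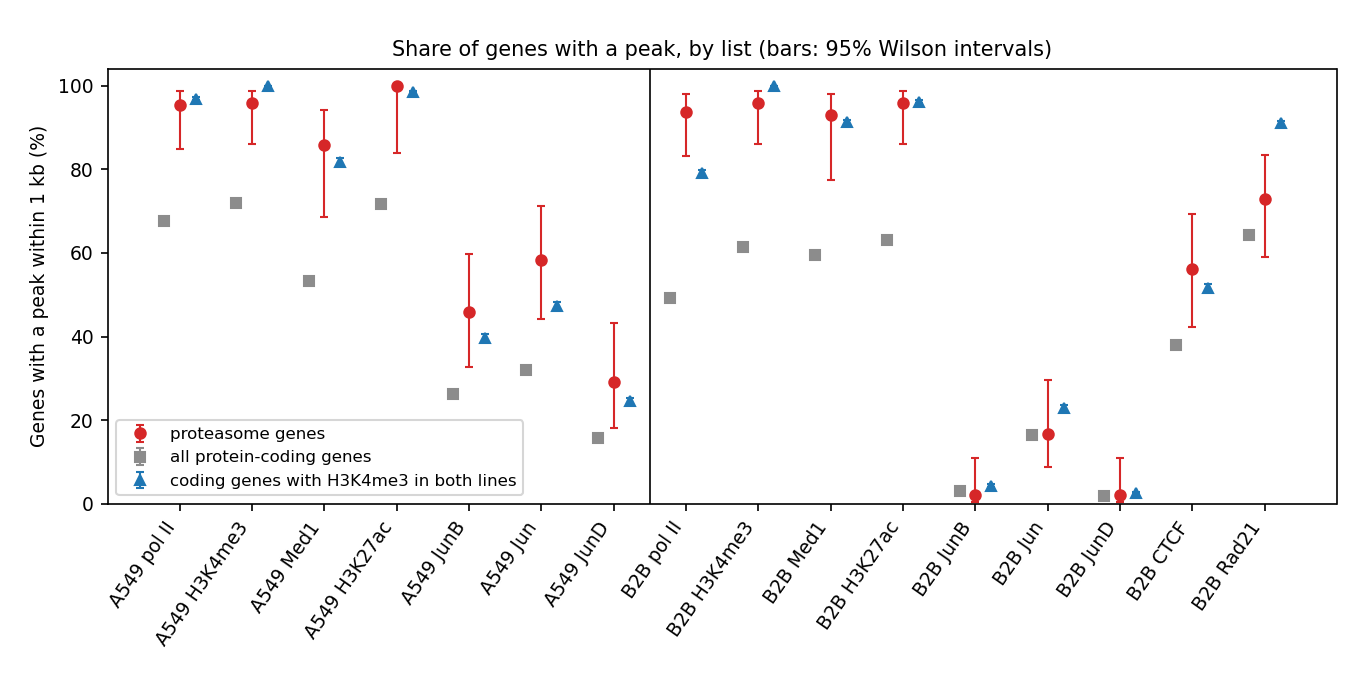
Percent of genes with a peak within 1 kb of a start site in each of the 16 lists, for proteasome genes (circles), all protein-coding genes (squares) and protein-coding genes with H3K4me3 in both lines (triangles), with 95% Wilson intervals. The proteasome genes lie above all genes for JunB, Jun and JunD in A549 and close to them in B2B, and below the marked genes for Rad21.

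At least 1 of the 3 Jun proteins was called at 32 genes in A549 (66.7%, all genes 37.7%, marked genes 56.2%) and at 8 in B2B (16.7%, all genes 16.5%, marked genes 22.9%). By role, A549 peaks lay at 6 of 6 ATPases, 9 of 11 non-ATPase subunits, 5 of 8 alpha subunits, 6 of 9 beta subunits, 4 of 5 activator and inhibitor genes and 2 of 7 assembly chaperones. All 6 ATPases, the motor that unfolds the substrate, had a Jun peak, and 3 of them also had JunB. Of the chaperones, PSMD9 and PSMD5 had peaks and PSMD10 and PSMG1 to PSMG4 had none. The groups are small, and no difference between them was tested.

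All 3 Jun proteins met at 9 genes in A549 (18.8%, all genes 11.6%, marked genes 18.3%), namely PSMB1, PSMC2, PSMD8, PSMD11, PSMD12, PSMD14, PSMD9, PSME4 and PSMF1. PSMD9, a chaperone of the ATPase ring, had the strongest Jun peak of all members, with a fold enrichment of 19.8 (percentile 81.8), its summit 209 bp upstream of the canonical start, and JunB and JunD peaks there of 11.6 and 5.19. PSMD14, the deubiquitinase of the regulatory particle, followed with Jun at 18.4, JunB at 12.3 and JunD at 6.02. At PSME4, an activator of the core particle, the 3 summits lay within 23 bp of the canonical start, with fold enrichments of 8.6 for Jun, 8.66 for JunB and 7 for JunD, the last being the strongest JunD peak of the members. At PSMC2 the 3 peaks lay together about an upstream alternative start, with the Jun summit 2775 bp before the canonical start.

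These were modest peaks placed close to the start. The 28 Jun peaks of A549 had fold enrichments of 4.17 to 19.8 and a median percentile of 29.2, against 45.6 over all genes with a Jun peak, and 0 of them stood at percentile 90 or above (all genes 7.8%). JunB had a median percentile of 38.1 (all genes 40) and JunD of 41.6 (all genes 44.6). The Jun summit lay within 500 bp of the canonical start at 26 of 28 genes (92.9%, all genes with a Jun peak 59.6%), and the JunB summit at 20 of 22 (90.9%, all genes 60%). For JunD it was 11 of 14 (78.6%, all genes 71.2%). Summits of other targets also lay there more often than at genes in general, as for A549 pol II (90.5%, all genes 81.8%) and B2B CTCF (66.7%, all genes 40.5%). The reverse held for JunB and JunD in B2B, with 1 gene each. Without regard to the window, the nearest Jun summit was a median of 0.248 kb from the canonical start in A549 and 37.5 kb in B2B, whereas over all genes the medians were 16.2 and 24.3 kb. Because Jun lay within 1 kb of a start at 28 of 48 genes in A549 and at 8 in B2B, these medians partly restate those shares. They were not computed for the marked genes.

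**Figure D3:**
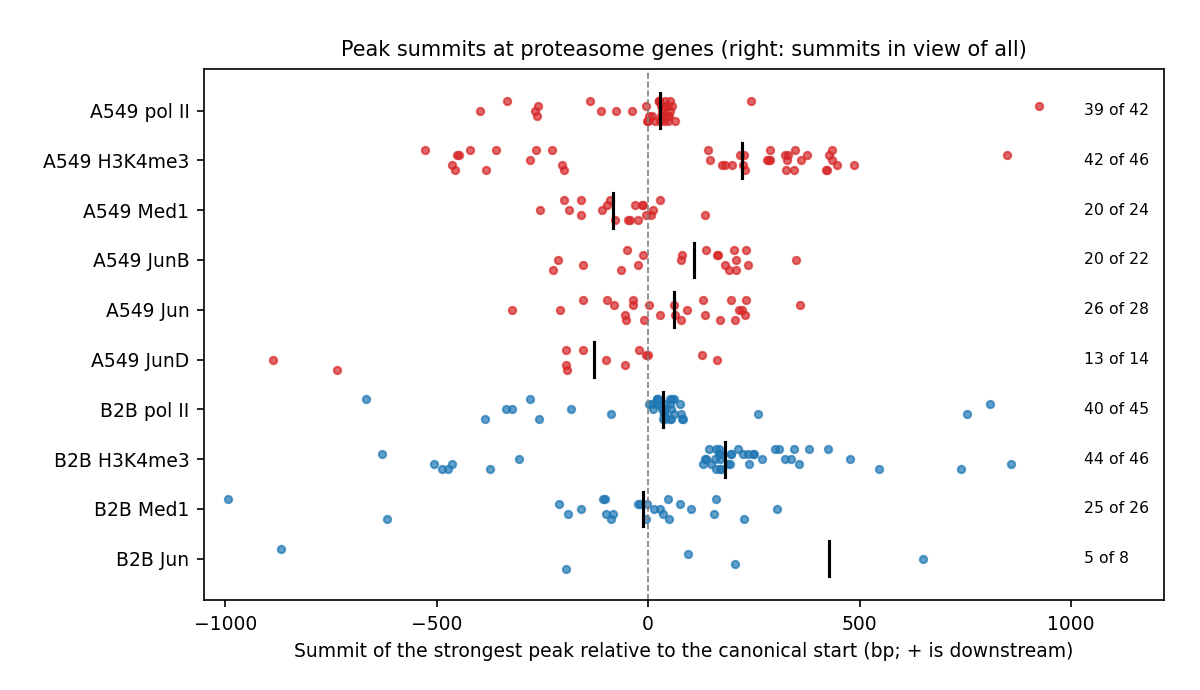
Position of the summit of the strongest peak of each proteasome gene relative to the canonical start (bp, positive downstream), for lists of A549 (red) and B2B (blue). Black bars are medians over all summits of the row, and the counts at the right give the summits in view. Of the A549 Jun summits, 26 of 28 lie within 500 bp of the start (92.9%, all genes with a Jun peak 59.6%). Of the B2B Jun summits, 3 of 8 do (37.5%, all genes with a Jun peak 24.2%). Weaker B2B Jun peaks of PSMA3 and PSMD9, not drawn, also have summits within that distance, 346 bp downstream and 211 bp upstream of the start.

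Genes with a Jun-family peak in A549 had the higher median pol II peak in A549. The median pol II fold enrichment was 65.4 for the 30 scored genes with at least 1 Jun protein (24.8 to 113) and 28.5 for the 12 genes with pol II and without one (15.8 to 62.6), and it was 93.5 for the 8 scored genes with all 3. For Med1 the medians were 13.5 (19 genes with a peak, of 20 scored) and 8.07 (5 genes with a peak, of 8 scored). For H3K27ac they were 77.2 (15 genes) and 40.1 (5 genes), and for H3K4me3 37.7 and 36.3. The ranges of pol II overlapped, as did those of Med1 (3 to 24.3 and 3.87 to 11.7) and H3K27ac (31.5 to 112 and 36.2 to 97.9). As percentiles within each list, which can be set side by side, the pol II medians of the same groups were 93.5 and 79.9 in A549 and 66.1 and 40.2 in B2B, where most of these genes had no Jun peak. For Med1 in B2B they were 76.4 and 45.1. The gap between the groups was thus present in both lines.

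In B2B a Jun-family peak lay at PSMA3, PSMD1, PSMD2, PSMD4, PSMD14, PSMD5, PSMD9 and PSME4. Only PSMD1, the largest scaffold subunit of the regulatory particle, had all 3 proteins (1 of 48 genes, 2.08%, all genes 1.43%), and these peaks lay in intron 20, with the Jun summit 105341 bp downstream of the canonical start and within 1 kb of an internal start. The fold enrichment there was 51.6 for Jun (percentile 99.2), 9.17 for JunB and 12.1 for JunD in B2B, and 11.5 for Jun in A549. B2B pol II also had its strongest member peak there, at a fold enrichment of 26.9. With the canonical start alone, no member had JunB or JunD in B2B.

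The Jun peaks of both lines at these genes merged into 39 sites, of which 7 were called in both lines, 29 in A549 only and 3 in B2B only. Over Jun sites near any protein-coding start, 23.8% were called in both lines, 56.7% in A549 only and 19.5% in B2B only. The 7 shared sites belonged to PSMA3 (2 sites), PSMD1, PSMD4, PSMD14 and PSMD9 (2 sites), with summits 1 to 35 bp apart between the lines. PSMD2 and PSME4 had Jun in both lines at different sites, and PSMD5 had Jun in B2B and JunB in A549.

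At the shared promoter sites the summits held reads of the same order in both lines, over backgrounds that were unequal at some sites and close at others. At the PSMA3 site upstream of the start the Jun summit held 11 reads over 1.21 in A549 and 13 over 1.88 in B2B, where the peak stood at percentile 8.49, and at the PSMA3 site downstream 14 over 1.01 and 25 over 4.92. At PSMD14 the Jun summit held 42 reads over a local background of 1.34 in A549 and 38 over 12.5 in B2B. At the PSMD9 promoter it held 72 reads over 2.68 in A549 and 53 over 13 in B2B, and at PSMD4 41 over 3.57 and 58 over 13.3. The reads are counts of merged libraries, which the methods of the study describe as scaled to CPM. No further scaling was done here, and the depth of each library is not given. The B2B peaks at PSMD14, PSMD9 and PSMD4 stood at percentiles 0.604, 2.48 and 3.47 of their list by fold enrichment, with −log10 q of 6.2, 13.9 and 16.7, and the part of the background in the number of promoters called in B2B was not tested.

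**Figure D4:**
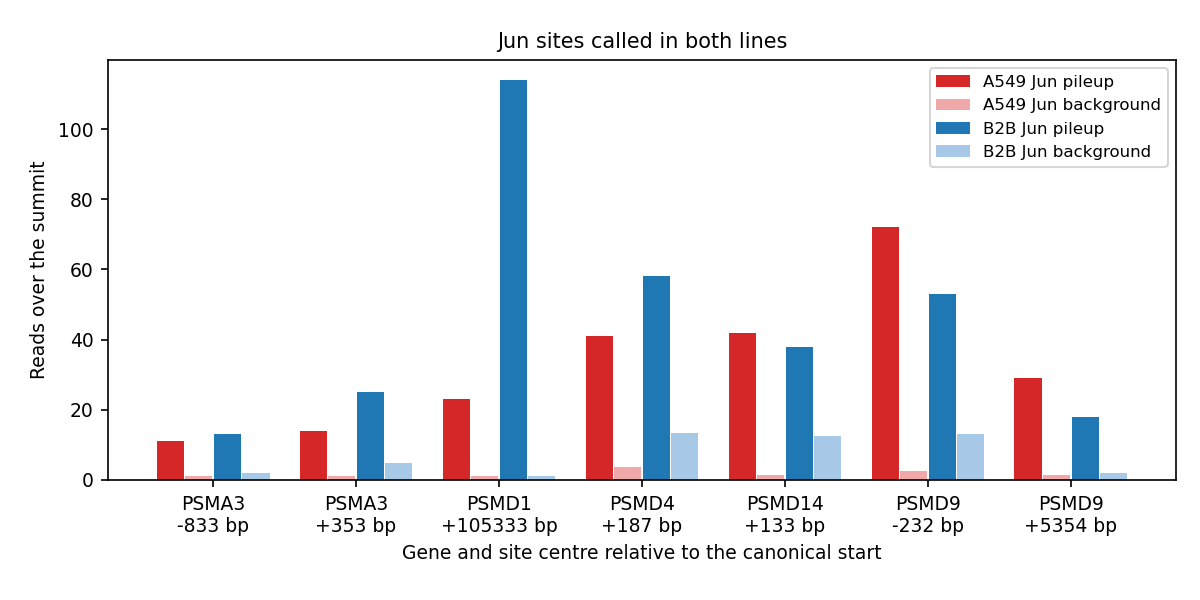
Reads over the Jun summit (dark bars) and local background (light bars) at the 7 sites called in both lines, for A549 (red) and B2B (blue), labelled by gene and by distance of the site from the canonical start. At the PSMD4, PSMD14 and PSMD9 promoters the B2B background is between 12.5 and 13.3 reads and the A549 background between 1.34 and 3.57. At the internal PSMD1 site B2B holds 114 reads and A549 23.

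The sequence under the peaks was searched on both strands for 5 motifs, of which the AP-1 site (TGANTCA) and the antioxidant response element (TGACNNNGC) bear most on these genes. The AP-1 letters lay within 50 bp of the summit at 12 of 36 Jun peaks of the members in A549 (33.3%, all Jun peaks within 1 kb of a start 26.2%) and at 8 of 10 in B2B (80%, against 45.5%). They were present at 6 of the 7 shared sites (85.7%; shared sites of all genes 55.9%) and at 6 of the 29 A549-only sites (20.7%, against 17.1%). Away from starts, 56.4% of all A549 Jun peaks held the letters. The antioxidant response element lay within 50 bp of 9 of 36 Jun summits (25%, all 10.9%) and of 8 of 28 JunB summits (28.6%, all 11.1%) in A549.

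The AP-1 letters at the 6 shared sites are shown because they mark the places where both lines carried Jun, each as 27 bases of hg38 on the strand of the gene with the motif in capitals. They lay in introns of PSMA3, PSMD1, PSMD4 and, for the downstream site, PSMD9, in the first exon of PSMD14 and before the first exon of PSMD9.
PSMA3, chr14:58245199-58245225: tttggattgcTGAGTCActttcttcag
PSMD1, chr2:231162203-231162229: tgtgacttgaTGATTCAtcttcttgtt
PSMD4, chr1:151254944-151254970: ctggactcccTGAGTCAtcccggggcc
PSMD14, chr2:161308464-161308490: ggaatcgggcTGATTCAtcgccggttt
PSMD9 promoter, chr12:121888553-121888579: aatgagaaaaTGAGTCAgctggggcga
PSMD9 intron, chr12:121894120-121894146: tactctcctcTGACTCAtgttaaaaaa
At each of these the motif lay within 27 bp of the A549 summit and within 42 bp of the B2B summit.

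The promoters themselves were compared with those of all genes. In RefSeq promoters of 300 bases (250 before and 50 after the start, GRCh38.p14), which were found for 42 of the 48 members, the AP-1 letters occurred in 1 (2.38%, against 5.74% of 15345 promoters) and the antioxidant response element in 12 (28.6%, against 14.3%). The ETS site (CCGGAAGT) occurred in 8 (19%, against 6.32%), the NF-Y site (CCAAT) in 20 (47.6%, against 36.6%) and the cyclic AMP response element (TGACGTCA) in 0 (all 2.64%). The single promoter with AP-1 letters was that of PSMD9, which also held the antioxidant response element on each strand. It is shown up to the start beside those of PSMD12 and PSME4, the other matched promoters with all 3 Jun proteins and this element, with the AP-1, antioxidant response and ETS letters in capitals on either strand.
PSMD9, chr12:121888540-121888789, plus strand: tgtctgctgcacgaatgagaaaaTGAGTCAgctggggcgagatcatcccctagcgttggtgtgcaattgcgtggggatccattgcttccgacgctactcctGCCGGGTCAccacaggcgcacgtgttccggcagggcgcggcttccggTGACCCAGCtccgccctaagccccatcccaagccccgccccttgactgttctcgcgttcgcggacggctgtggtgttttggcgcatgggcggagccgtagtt
PSMD12, chr17:67366578-67366827, minus strand: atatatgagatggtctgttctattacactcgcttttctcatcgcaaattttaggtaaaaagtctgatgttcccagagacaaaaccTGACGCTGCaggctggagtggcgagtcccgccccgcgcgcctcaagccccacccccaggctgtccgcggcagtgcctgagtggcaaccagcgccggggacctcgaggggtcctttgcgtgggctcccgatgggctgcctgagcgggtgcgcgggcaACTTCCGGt
PSME4, chr2:53970994-53971243, minus strand: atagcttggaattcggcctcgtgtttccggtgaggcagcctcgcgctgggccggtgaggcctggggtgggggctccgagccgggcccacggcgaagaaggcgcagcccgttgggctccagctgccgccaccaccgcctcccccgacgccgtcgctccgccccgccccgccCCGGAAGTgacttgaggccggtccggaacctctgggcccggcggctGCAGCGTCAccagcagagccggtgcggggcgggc

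The AP-1 letters were more frequent past the start of these genes than before it. In the 500 bp after the canonical start they occurred in 13 of 48 members (27.1%, interval 16.6 to 41%, against 6.06% of 20007 genes), and in the 500 bp before it in 2 (4.17%, 1.15 to 14%, against 9.74%). The antioxidant response element occurred after the start in 20 members (41.7%, 28.8 to 55.7%, all 18%) and before it in 14 (29.2%, 18.2 to 43.2%, all 19.4%). These windows were chosen after the data were seen. A match of letters is a description of the sequence and shows no binding by itself.

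Some matches to both motifs were the same letters. The run TGACTCAGC meets both patterns at once, and it occurred within 500 bp of the canonical start in 6 of 48 members (12.5%, interval 5.86 to 24.7%), against 1.04% of 20007 protein-coding genes and 0.895% of those with H3K4me3 in both lines. The run was singled out after its occurrence had been seen. The 6 genes were PSMA3, PSMA5, PSMD1, PSMD2, PSMD7 and PSMD12. In each the run lay in the first intron, 205 to 368 bp downstream of the start, and is shown in capitals in 29 bases of hg38, written on the strand where it reads TGACTCAGC.
PSMA3, chr14:58245197-58245225, minus strand: ctgaagaaagTGACTCAGCaatccaaagc
PSMA5, chr1:109426089-109426117, plus strand: gacccaggggTGACTCAGCggtaggacaa
PSMD1, chr2:231057090-231057118, minus strand: tcaccggcccTGACTCAGCtaaaagccgg
PSMD2, chr3:184299432-184299460, minus strand: ggagccgccgTGACTCAGCcccgcagcct
PSMD7, chr16:74297020-74297048, minus strand: agcgtgcccgTGACTCAGCagcggctgcg
PSMD12, chr17:67366355-67366383, plus strand: ctccgcgccgTGACTCAGCccctggcgcc
In each gene the run read against the direction of transcription, PSMA5 and PSMD12 being transcribed from the minus strand.

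A Jun or JunB peak of A549 overlapped the run at all 6 genes, at PSMD2 only in part, and a B2B peak overlapped it at PSMA3 alone. This overlap was not counted over all genes with the run. The A549 JunB summit lay 5 bp from the centre of the run at PSMA5, 1 bp at PSMD1, 5 bp at PSMD12 and 82 bp at PSMD7, and the A549 Jun summit lay 8 bp from it at PSMA3, 28 bp at PSMD1, 24 bp at PSMD7, 23 bp at PSMD12 and 113 bp at PSMD2. Other A549 peaks of these genes did not overlap the run. Their nearest summits lay 282 bp from it for Jun at PSMA5, 137 bp for JunB at PSMA3 and 229 bp for JunD at PSMD12. At PSMD7, the partner of the deubiquitinase PSMD14, the Jun and JunB peaks of 11.1 and 12 were among the strongest of the members. By the looser measure of a Jun-family peak of A549 within 1 kb of a start, all 6 members had one. Among the 107 genes with H3K4me3 in both lines and the run, which include these 6, 89 (83.2%) had one, against 56.2% of all genes so marked.

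**Figure D5:**
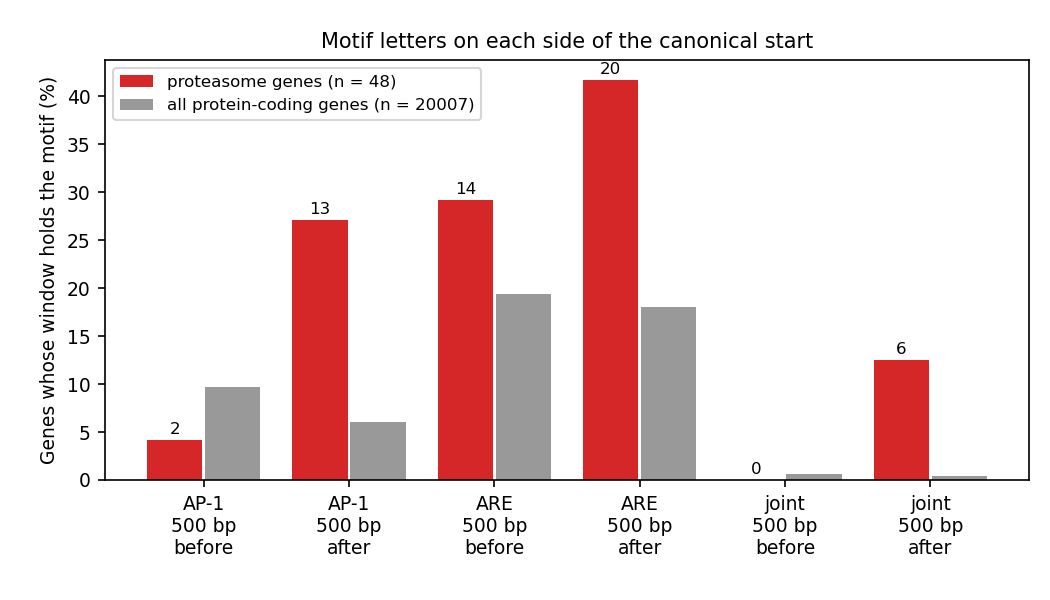
Percent of proteasome genes (red, counts above the bars) and of all protein-coding genes (grey) with the AP-1 letters, the antioxidant response element (ARE) or the run that meets both (joint) in the 500 bp before and after the canonical start. The AP-1 letters occur in 13 members after the start and in 2 before it, and the joint run in 6 after and 0 before it.

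CTCF and Rad21 were compared at the same promoters in B2B. CTCF lay at 27 of 48 genes (56.2%, interval 42.3 to 69.3%, all genes 38%, marked genes 51.7%) and Rad21 at 35 (72.9%, 59 to 83.4%, all genes 64.4%, marked genes 91.1%). The share of Rad21 was thus below that of the marked genes, whose value lay outside the interval. The local background under the Rad21 peaks of the members was a median of 22.1 times the lowest of the list, and its part in this share was not tested. By role, Rad21 lay at 3 of 9 beta subunits, 5 of 8 alpha subunits, 4 of 6 ATPases, 10 of 11 non-ATPase subunits, 6 of 7 chaperones and 5 of 5 activator and inhibitor genes. CTCF without Rad21 occurred at 7 genes (PSMA2, PSMB3, PSMB5, PSMB6, PSMB7, PSMC1 and PSMC2), whereas 4.01% of marked genes had this pattern. The strongest CTCF peak of the members, at PSMD13 with a fold enrichment of 37, lay 13958 bp downstream of the canonical start.

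Ribosomal protein genes, which are also transcribed in most cells, were compared as other large sets. Of 81 cytosolic ribosomal protein genes, 53.1% had Jun, 48.1% JunB and 25.9% JunD in A549, and 18.5% had Jun in B2B. Of 78 mitochondrial ribosomal protein genes, 39.7%, 29.5% and 17.9% had these proteins in A549, and 8.97% had Jun in B2B. Rad21 lay at 76.5% and 78.2% of these sets, also below the 91.1% of marked genes. The values of the cytosolic ribosomal set lay within the intervals of the proteasome genes in each of these comparisons. Those of the mitochondrial ribosomal set lay below the intervals for all 3 Jun proteins in A549, and within them for Jun and Rad21 in B2B.

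Genes that act with the proteasome (assembly factors, ubiquitin genes, shuttle proteins and regulators) had Jun at 21 of 25 in A549 (84%, all genes 31.9%, marked genes 47.4%) and at 4 in B2B (16%, all genes 16.5%, marked genes 22.8%). JunB lay at 17 in A549 (68%, all genes 26.3%, marked genes 39.6%) and at 2 in B2B (8%, all genes 3.02%, marked genes 4.29%). JunD lay at 11 in A549 (44%, all genes 15.8%, marked genes 24.6%) and at 1 in B2B (4%, all genes 1.75%, marked genes 2.5%). NFE2L1 had a Jun peak in A549 with a fold enrichment of 5.53 (percentile 12.2), 193 bp upstream of its canonical start, and none in B2B. NFE2L2, which encodes the related regulator of the antioxidant response, had Jun at an alternative start in both lines, with a fold enrichment of 26.5 in each. It also had JunB in both lines (10 in A549 and 5.77 in B2B) and JunD in A549 (7.13).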

How the data were processed

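Peak lists of 16 groups were analysed, each from 2 replicates that the authors merged. Per the methods of the study, reads were aligned to hg38 with Bowtie2 2.4.4, duplicates were removed, merged replicates were scaled to CPM with SAMtools 1.13, and peaks were called with MACS2 2.2.7.1. The control and options of the caller, and the read depth, are not given in the sources used here. The deposited score of a peak is 10 times its −log10 q. The deposited fold enrichment is the ratio of the pileup plus 1 to the local background plus 1. The authors' significance values are a p-value and a q-value for each summit, both as −log10, and no list went below 2 for the latter.

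Start sites were those of all transcripts in GENCODE 44. A gene was called where any base of a peak lay within 1 kb of a start, on chromosomes that the list covers. Pileup and background were solved from fold and p, and 100% of the solved pileups were whole numbers within 0.05. Shares carry Wilson intervals, and differences Newcombe intervals that treat the lines as independent. Python 3.11.15, NumPy 2.4.6, SciPy 1.17.1, pysam 0.24.0, samtools 1.23.1 and Matplotlib 3.10.9 were used, and the functions were tested on simulated data. Promoter sequences are from RefSeq (GRCh38.p14). The members, roles, other gene lists and the naming rule were chosen with earlier results of these data known. The rule names members with all 3 Jun proteins or any Jun protein in B2B, those without H3K4me3, those called in 1 line only, and the 3 strongest per list. Alternatives were the distance, the starts, a stricter q, equal list lengths, the summit rule, the members, the chromosomes and the motif windows. Input samples were not analysed here.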

Additional observations from a re-analysis of the deposited data

How the results depend on the processing

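No paired analysis was possible because each list comes from merged replicates, and for the same reason no replicate could be left out. Of the alternatives, 222 comparisons of the main results moved by less than their counting interval or by less than 1.5 times a count, and 32 moved by more. For the counts of genes called in 1 line only, 112 moved by less and 14 by more. No difference between the lines reversed its sign, but the AP-1 letters went from below the share of all genes to above it. With a distance of 500 bp, JunD was at 0% of members in B2B and all 3 Jun proteins met at 0, and with the canonical start alone JunB, JunD and the 3 together were at 0 in B2B. Pol II and H3K4me3 in both lines and H3K27ac in B2B were at 100% of members with lists of equal length on chromosomes 1 to 12 and with full lists there. Without PSMA8, PSMB11, PSMC3IP and PSME3IP1, A549 pol II, H3K4me3 in both lines and B2B H3K27ac were at 100%. With equal lengths, A549 JunB was at 15%, its difference 10 points, all 3 Jun proteins met at 3 genes in A549, and at least 1 lay at 13 genes in A549 and 5 in B2B, counts that are lower in part because 20 members are on these chromosomes. With full lists there, A549 JunB was at 60%, B2B Jun at 35%, all 3 met at 5 genes and at least 1 lay at 15 in A549. In windows of 500 bp to each side of the start, AP-1 letters were at 29.2% of members (all genes 15.3%). The antioxidant response element was at 62.5% (all genes 34.3%) and the NF-Y site at 66.7% (all genes 63.8%). AP-1 letters were at 27.1% in the 500 bp after the start (all genes 6.06%), a window chosen after the data were seen. In the main promoter window they were at 2.38% of members and at 5.74% of all promoters. The wider windows hold more sequence, and for the other settings the cause was not tested.

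The lists give no replicate error, so all intervals cover counting error only and no line difference can be tested. Genes with several start sites have more chances of a peak (40 of 48 members had start sites in clusters more than 1 kb apart). At 8 members a coding gene on the other strand starts within 1 kb upstream of the canonical start, and its peaks cannot be told apart. Alternative starts, such as that of PSMC2, were not searched for such neighbours. Depth is not given, so absence of a peak means that none was called, not that the protein was absent.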
